A study of Mus musculus with 13 samples.

Results

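The guide arms of the miR-106b-25 and miR-106a-363 clusters were examined in B78H1 melanoma from mice on a curcumin or a standard diet. They were chosen by name: mmu-miR-106b-5p, mmu-miR-93-5p and mmu-miR-25-3p from the miR-106b-25 cluster, and mmu-miR-106a-5p, mmu-miR-20b-5p and mmu-miR-363-3p from the miR-106a-363 cluster. A guide arm is the strand of a miRNA hairpin that is mostly loaded into the silencing complex. Of these 6 guide arms, 5 had values among the 1079 mouse miRNAs measured, and mmu-miR-106a-5p was not analysed here. All tumors came from male C57BL/6 mice whose flanks were injected subcutaneously with B78H1 cells, a single amelanotic, MHC-I-negative clone derived from B16 melanoma. The 7 curcumin-treated tumors were from mice given chow with 4% curcumin from 14 days before the injection, and the 6 control tumors from mice given standard chow. RNA was taken from whole tumors 28 days after the injection, host cells included, and each tumor was hybridized to 1 array. The age of the mice is not given in the sources used here.

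Both clusters are paralogs of miR-17-92, a polycistron known for promoting proliferation in many tumors. miRNAs pair with target mRNAs mainly through the seed near their 5′ end, so that guide arms with a shared seed can repress overlapping sets of targets. A known target of the miR-17 seed is the cell cycle inhibitor Cdkn1a (p21). miR-106b-25 lies in an intron of Mcm7, which encodes a subunit of the replicative helicase, whereas miR-106a-363 lies on the X chromosome.

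The mature sequences are shown because they sort the 6 guide arms into 2 seed families that cross the clusters. All 6 were matched by name to RefSeq (mouse assembly GRCm38.p6). They are written 5′ to 3′, and the seed (bases 2 to 8) is in capitals.
mmu-miR-106b-5p: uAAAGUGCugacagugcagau
mmu-miR-93-5p: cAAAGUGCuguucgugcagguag
mmu-miR-106a-5p: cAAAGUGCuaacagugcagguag
mmu-miR-20b-5p: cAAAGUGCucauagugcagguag
mmu-miR-25-3p: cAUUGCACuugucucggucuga
mmu-miR-363-3p: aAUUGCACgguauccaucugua

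The first 4 guide arms carried the miR-17 seed and the other 2 the miR-25 seed. The 2 closest relatives from miR-17-92 are shown for comparison.
mmu-miR-17-5p: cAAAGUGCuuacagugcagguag
mmu-miR-20a-5p: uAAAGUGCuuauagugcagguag
Counted from the 5′ end, mmu-miR-106a-5p differed from mmu-miR-17-5p by 1 base (U10A, the base of mmu-miR-17-5p first). mmu-miR-20b-5p differed from mmu-miR-20a-5p by 2 bases (U1C and U10C, the base of mmu-miR-20a-5p first). How far the probes of such near-identical miRNAs share signal was not tested.

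The 3 hairpins of miR-106b-25 spanned 498 bases at chr5:138165321-138165818, on the minus strand and inside Mcm7, in the transcribed order Mir106b, Mir93 and Mir25. The 6 hairpins of miR-106a-363 spanned 875 bases at chrX:52741693-52742567, also on the minus strand, in the order Mir106a, Mir18b, Mir20b, Mir19b-2, Mir92-2 and Mir363. The noncoding gene Kis2 overlapped part of the X-linked cluster.

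Over all miRNAs, the summed signal per array was between 114095 and 281508 in curcumin-treated tumors and between 150272 and 244666 in controls, and 272 to 412 miRNAs were detected per array. Curcumin-treated tumor 5 had the lowest sum and the fewest detected miRNAs, and control tumor 5 had the most detected miRNAs (412). Each slide held its control arrays in one row and its curcumin arrays in the other, so row and diet cannot be told apart.

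The scanner software called 4 guide arms detected on all 13 arrays, namely mmu-miR-106b-5p, mmu-miR-93-5p, mmu-miR-25-3p and mmu-miR-20b-5p. Each was measured by 2 probes of 20 spots, and in the median tumor of both diets all 20 spots of each probe were well above background. Their summed signals before normalization were between 166 and 946 in all tumors, so these guide arms were far from the background. In contrast, mmu-miR-363-3p was detected on 0 of 13 arrays. Its background-subtracted signal was at most 0.83 on any array and below 0 on 12 of 13, and no array had more than 1 of the 20 spots of either probe well above background.

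Of the 5 measured guide arms, 3 were lower in curcumin-treated tumors and 0 higher (limma, Benjamini-Hochberg adjusted over all 1079 miRNAs, threshold 0.05). The 3 were mmu-miR-93-5p and mmu-miR-25-3p from chromosome 5 and mmu-miR-20b-5p from the X chromosome, with differences of 1.59- to 1.76-fold. mmu-miR-106b-5p, which is processed from the same transcript as mmu-miR-93-5p and mmu-miR-25-3p, was not called. Of all miRNAs, 7.51% were called lower and 8.34% higher. Among the 243 miRNAs detected on all arrays 21.4% were called lower, and the median difference was −0.09 on the log2 scale. In bulk tumors, fewer cells of a type and less of a miRNA per cell cannot be told apart. The values below are log2 quantile-normalized signals, so each value is relative to the rest of its array, and levels of different miRNAs are not compared because each has its own probes.

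**Figure D1:**
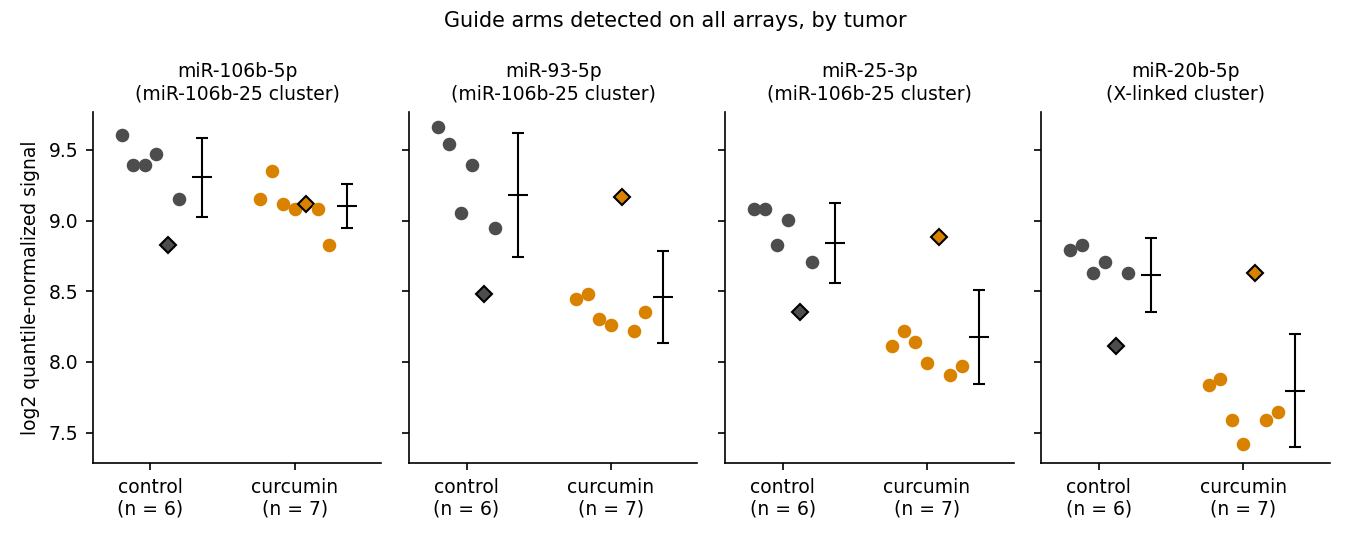
Log2 quantile-normalized signal of the 4 guide arms detected on all arrays (vertical axis) in 6 control (grey) and 7 curcumin-treated tumors (orange); each point is 1 tumor, diamonds are the tumors numbered 5, and bars are mean ± SD. For miR-93-5p, miR-25-3p and miR-20b-5p curcumin-treated tumor 5 lies among the controls and control tumor 5 is the lowest control, whereas the groups of miR-106b-5p overlap broadly.

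mmu-miR-93-5p, the middle hairpin of miR-106b-25 and a carrier of the miR-17 seed, was 1.64-fold lower under curcumin. In curcumin-treated tumors the lowest, median and highest log2 signals were 8.22, 8.35 and 9.17 (mean 8.46 ± 0.33, SD, n = 7). In controls they were 8.48, 9.22 and 9.66 (mean 9.18 ± 0.44, SD, n = 6). The highest curcumin value was that of tumor 5 and the lowest control value that of tumor 5, and the diet groups overlapped. The log2 difference was −0.72 (SE 0.21, limma adjusted p = 0.0401; exact permutation p = 0.0105). This call depended on most of the tumors, since it was kept in 3 of 13 fits that left out 1 tumor each. Those were the fits without curcumin-treated tumor 5, control tumor 5 or control tumor 6. In the other 10 the limma adjusted p reached 0.0863.

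mmu-miR-25-3p, the last hairpin of the cluster, carries the other seed and was 1.59-fold lower. Its log2 signals in curcumin-treated tumors were 7.91 at the lowest, 8.11 at the median and 8.88 at the highest (mean 8.18 ± 0.33, SD, n = 7). The control tumors had values of 8.35, 8.91 and 9.08 in the same order (mean 8.84 ± 0.28, SD, n = 6). Again curcumin-treated tumor 5 gave the highest curcumin value and control tumor 5 the lowest control value, and the groups overlapped through these tumors. The log2 difference was −0.67 (SE 0.17, limma adjusted p = 0.0250; exact permutation p = 0.00641). Without curcumin-treated tumor 6, control tumor 1, control tumor 2 or control tumor 4 it was no longer called (limma adjusted p up to 0.0552).

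mmu-miR-20b-5p was the X-linked guide arm with a measurable level, and it was 1.76-fold lower under curcumin. The lowest, median and highest log2 signals were 7.42, 7.64 and 8.63 in curcumin-treated tumors (mean 7.80 ± 0.40, SD, n = 7). The controls had 8.11, 8.67 and 8.83 (mean 8.62 ± 0.26, SD, n = 6). Curcumin-treated tumor 5 had the value of the second-lowest control, control tumor 5 was the lowest control, and the groups overlapped. The log2 difference was −0.82 (SE 0.19, limma adjusted p = 0.0142; exact permutation p = 0.00408). The call was kept in 13 of 13 fits that left out 1 tumor each, with a limma adjusted p of at most 0.0377.

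mmu-miR-106b-5p, the first hairpin of the chromosome 5 cluster and a carrier of the miR-17 seed, had log2 signals of 8.83, 9.12 and 9.35 (lowest, median, highest) in curcumin-treated tumors (mean 9.10 ± 0.15, SD, n = 7). In controls they were 8.83, 9.39 and 9.61 (mean 9.31 ± 0.28, SD, n = 6). The groups overlapped over most of their ranges, and the lowest values of both were equal. The log2 difference was −0.20 with a 95% confidence interval from −0.47 to 0.06 (limma adjusted p = 0.374; exact permutation p = 0.117). Scaled to the 75th percentile of all miRNAs, the difference was 0.04.

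mmu-miR-363-3p, the X-linked carrier of the miR-25 seed, gives no measured diet difference, since 12 of its 13 summed values were at or below 0 and were set to the floor. In the log2 values deposited by the authors it ranged from 1.71 to 2.32 in curcumin-treated tumors and from 1.26 to 1.93 in controls. There the difference of 0.38 passed the threshold (limma adjusted p = 0.0472), although the miRNA was detected on no array. In those values 9.55% of all miRNAs were called higher and 11.4% lower.

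The 2 probes of each detected guide arm moved the same way. Taken by itself, each probe of mmu-miR-20b-5p passed the threshold, with log2 differences of −0.79 and −0.93 (limma adjusted p = 0.0260 and 0.0152). For mmu-miR-93-5p the dimmer probe had −0.62 (limma adjusted p = 0.166) and the brighter probe −0.77 (limma adjusted p = 0.0388). For mmu-miR-25-3p the corresponding values were −0.44 (limma adjusted p = 0.179) and −0.66 (limma adjusted p = 0.0397). The probes of mmu-miR-106b-5p gave −0.26 and −0.32, and neither passed the threshold. Of the 2 probes of mmu-miR-93-5p and mmu-miR-25-3p, the brighter one thus passed by itself and the dimmer one did not.

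**Figure D2:**
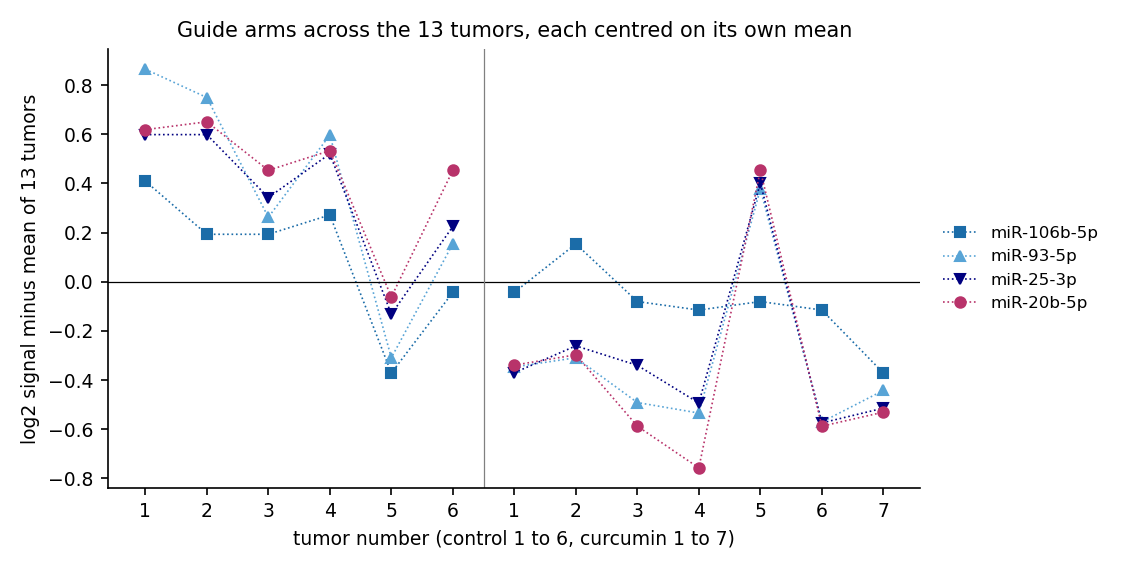
Log2 signal of each detected guide arm minus its own mean over all 13 tumors (vertical axis) against tumor number, controls to the left and curcumin-treated tumors to the right of the vertical line. The lines of miR-93-5p, miR-25-3p and miR-20b-5p run together, including the high value in curcumin-treated tumor 5 and the low value in control tumor 5, and miR-106b-5p shows no rise in curcumin-treated tumor 5.

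In the normalized values, the tumors that made the groups overlap were the same for mmu-miR-93-5p, mmu-miR-25-3p and mmu-miR-20b-5p. Before normalization they were others. There curcumin-treated tumor 2 had the highest curcumin sums (525, 446 and 307) and control tumor 6 the lowest control sums (423, 336 and 304). These sums are not scaled to the signal of the whole array. Over all miRNAs, curcumin-treated tumor 2 had the largest sum of all arrays (281508). Control tumor 6 had 154190, near the lower end of the controls (150272 to 244666). Leaving out curcumin-treated tumor 5 and control tumor 5, a step chosen after seeing the data, the groups of these 3 guide arms no longer overlapped, as was then the case for 39.5% of the 243 miRNAs detected on all arrays (11.9% with all tumors). mmu-miR-93-5p then ranged from 8.22 to 8.48 in curcumin-treated tumors and from 8.95 to 9.66 in controls. For mmu-miR-25-3p the ranges were 7.91 to 8.22 and 8.71 to 9.08. For mmu-miR-20b-5p they were 7.42 to 7.88 and 8.63 to 8.83. The groups of mmu-miR-106b-5p still overlapped (8.83 to 9.35 and 9.15 to 9.61). The log2 differences became −0.97, −0.88 and −1.06 for the 3 called guide arms (limma adjusted p = 0.000663, 0.00011 and 4.78e-05) and −0.30 for mmu-miR-106b-5p (limma adjusted p = 0.0721). In each of the 3 called guide arms the removed tumors held the highest curcumin value and the lowest control value. Leaving them out necessarily enlarged these differences, so the smaller p-values are no separate evidence. Without these tumors 8.53% of all miRNAs were called lower.

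Since the hairpins of a cluster are cut from one transcript, the ratio of 2 guide arms within a tumor shows whether they changed by equal amounts. Such a ratio also cancels a single scaling factor of the array, though not the effect of quantile normalization. The planned pairs of paralogs allowed only mmu-miR-93-5p over mmu-miR-20b-5p, because mmu-miR-106a-5p was not analysed here and mmu-miR-363-3p was not detected. Therefore all 6 ratios among the 4 detected guide arms were compared, a choice made after the data were seen. The p-values below are from exact permutation tests over 1716 splits of the tumors, and the adjusted values are over these 6 ratios. The level of a ratio also reflects the probes, so the difference between the diets is the measurement.

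**Figure D3:**
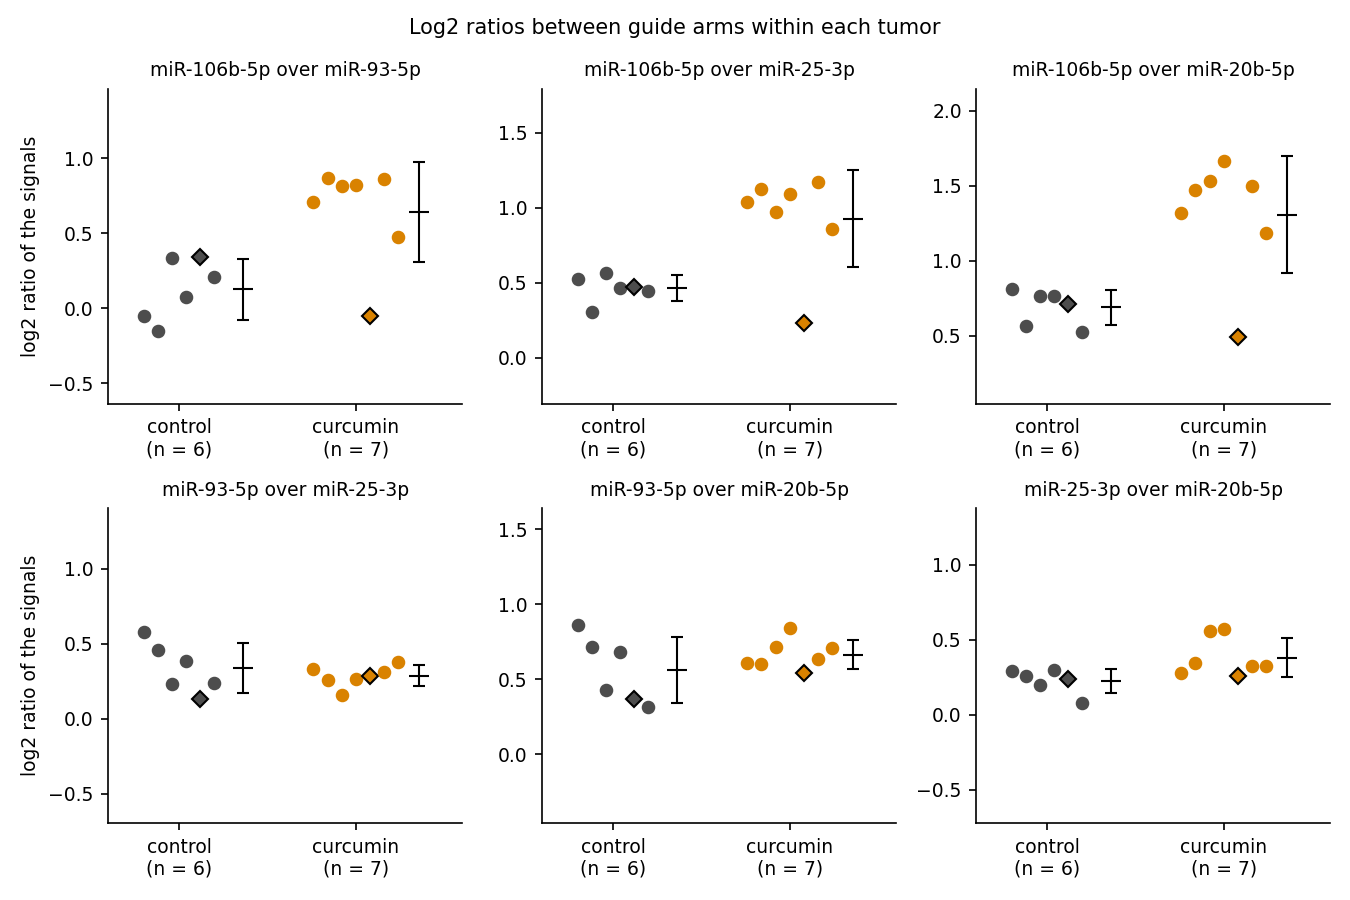
Log2 ratio of 2 guide arms within each tumor (vertical axis) for the 6 pairs, in control (grey) and curcumin-treated tumors (orange); points are tumors, diamonds the tumors numbered 5, bars mean ± SD, and all panels span the same log2 height. The 3 ratios with miR-106b-5p on top are higher in 6 of 7 curcumin-treated tumors than in every control, and those in the lower panels differ less.

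The ratio of mmu-miR-106b-5p to each of the other 3 detected guide arms was higher in curcumin-treated tumors. Against its cluster neighbor mmu-miR-93-5p the log2 ratio was −0.05 at the lowest, 0.81 at the median and 0.87 at the highest under curcumin, and −0.15, 0.14 and 0.34 in controls. The difference was 0.52 (95% confidence interval 0.17 to 0.86, exact p = 0.00991, adjusted 0.0198). Against mmu-miR-25-3p the difference was 0.46 (interval 0.16 to 0.77, exact p = 0.00991, adjusted 0.0198). Against the X-linked mmu-miR-20b-5p it was 0.62 (interval 0.25 to 0.99, exact p = 0.00758, adjusted 0.0198). In each of these ratios 6 of 7 curcumin-treated tumors lay above all controls, and curcumin-treated tumor 5 lay within or below the control range. Thus, over the 13 tumors together, mmu-miR-106b-5p and mmu-miR-93-5p, which share a cluster and a seed, changed by unequal amounts between the diets. The 3 ratios all contain mmu-miR-106b-5p and are not independent of each other. None of them passed on a single slide, where fewer tumors limit the test.

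Between the clusters, mmu-miR-93-5p and mmu-miR-20b-5p fell by amounts whose difference was not larger than the spread between tumors. Their log2 ratio was 0.54, 0.64 and 0.84 (lowest, median, highest) under curcumin and 0.32, 0.55 and 0.86 in controls. The difference was 0.10, with a 95% confidence interval from −0.10 to 0.30 (exact p = 0.288, adjusted 0.346). Without normalization between arrays it was 0.18 (exact p = 0.0297). The slides gave opposite signs, −0.15 on slide 1 (exact p = 0.200) and 0.23 on slide 2 (exact p = 0.0857). mmu-miR-25-3p fell slightly less than mmu-miR-20b-5p, with a difference of the log2 ratio of 0.15 (interval 0.02 to 0.29, exact p = 0.0163, adjusted 0.0245). Without normalization between arrays this difference was 0.26 (exact p = 0.00408). With it, the comparison passed the threshold in 12 of 13 repeats that left out 1 tumor, but not without control tumor 6 (0.12, exact p = 0.0631). Within the chromosome 5 cluster, mmu-miR-93-5p and mmu-miR-25-3p differed by −0.05 (interval −0.20 to 0.10, exact p = 0.480, adjusted 0.480). The slides gave −0.27 on slide 1 (exact p = 0.1, the smallest possible there) and 0.07 on slide 2 (exact p = 0.314).

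Each guide arm was also compared with the other 242 miRNAs detected on all arrays, which uses the ratios above again and is no separate evidence. Likeness was measured as the SD of the log2 ratio over the 13 tumors, a smaller SD meaning a more similar profile. This SD is also small where both miRNAs vary little. The log2 signal itself had an SD of 0.234 for mmu-miR-106b-5p, 0.521 for mmu-miR-93-5p, 0.456 for mmu-miR-25-3p and 0.537 for mmu-miR-20b-5p. The SDs of ratios are therefore not compared between guide arms. The 2 miRNAs most like mmu-miR-93-5p were mmu-miR-25-3p (SD 0.121) and mmu-miR-20b-5p (SD 0.167), against a median SD of 0.632 over all 242. The nearest to mmu-miR-25-3p were mmu-miR-93-5p (0.121) and mmu-miR-130a-3p (0.125), with a median of 0.578. mmu-miR-130a-3p belongs to none of these clusters and was nearer than mmu-miR-20b-5p (0.132). For mmu-miR-20b-5p they were mmu-miR-25-3p (0.132) and mmu-miR-19a-3p (0.166), with a median of 0.625. The nearest to mmu-miR-106b-5p were mmu-miR-107-3p (0.119) and mmu-miR-101b-3p (0.122), neither of which belongs to these clusters, with a median of 0.502. These values describe profiles over tumors that share the diet contrast and carry no test.

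The passenger arms, the opposite strands of the hairpins, were mostly below detection. Of the 6 passenger arms 0 were called, and mmu-miR-93-3p, mmu-miR-25-5p, mmu-miR-106a-3p, mmu-miR-20b-3p and mmu-miR-363-5p were detected on no array. mmu-miR-106b-3p was detected on all 13 arrays, through 1 of its 4 probes. That probe had a mean log2 signal of 1.70 under curcumin and 2.87 in controls, a difference of −1.17 (limma adjusted p = 0.110). Its signal before normalization ranged from 1.90 to 3.79 under curcumin and from 5.43 to 11.4 in controls. In the deposited log2 values the difference of mmu-miR-106b-3p was −0.71 (limma adjusted p = 0.0450). The summed signal of all 4 probes gave −3.24 (limma adjusted p = 0.137), but it included probes at or below 0 and in curcumin-treated tumor 6 it lay at the floor.

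**Figure D4:**
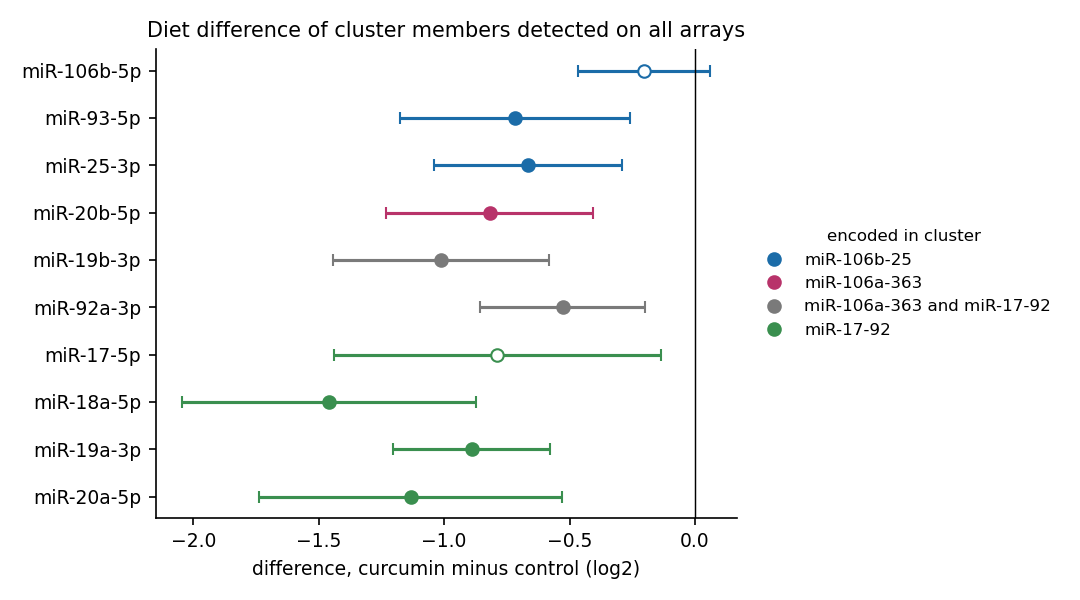
Difference of the mean log2 quantile-normalized signal, curcumin minus control (horizontal axis), with its 95% confidence interval, for the guide arms of the 3 paralog clusters detected on all arrays; filled points passed the limma threshold. Of the 10 guide arms 8 were called lower, against 21.4% of the 243 miRNAs detected on all arrays, and miR-106b-5p and miR-17-5p were not.

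The other members of the X-linked cluster and of miR-17-92 give the context of these values. mmu-miR-19b-3p and mmu-miR-92a-3p are encoded in both clusters, so their signal cannot be assigned to one of them. They were lower by −1.01 and −0.53 on the log2 scale (limma adjusted p = 0.00655 and 0.0377). Without normalization between arrays mmu-miR-92a-3p was not called (−0.42, limma adjusted p = 0.215). mmu-miR-18b-5p, encoded in the X-linked cluster, was detected on 0 of 7 arrays under curcumin and on 1 of 6 in controls, and its deposited values differed by −0.74 (limma adjusted p = 0.0277). Of the 6 measured guide arms of miR-17-92, 5 were called lower, mmu-miR-19b-3p and mmu-miR-92a-3p included. The share was 7.51% of all miRNAs and 21.4% of the 243 detected on all arrays. mmu-miR-18a-5p was at −1.46, mmu-miR-20a-5p at −1.13 and mmu-miR-19a-3p at −0.89 (limma adjusted p = 0.00500, 0.0196 and 0.00348). mmu-miR-17-5p had a difference of −0.79 and was not called (limma adjusted p = 0.102), although without normalization between arrays it was (−0.96, limma adjusted p = 0.0196). Leaving out curcumin-treated tumor 5 and control tumor 5, it was −1.18 (limma adjusted p = 0.000596). These tumors held its highest curcumin value and its lowest control value, so leaving them out necessarily enlarged the difference.

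By seed, 5 measured miRNAs carried the miR-17 seed AAAGUGC, all detected on all arrays, and 3 of them were called lower: mmu-miR-20a-5p, mmu-miR-20b-5p and mmu-miR-93-5p. The miR-25 seed AUUGCAC was carried by 6, of which mmu-miR-25-3p and mmu-miR-92a-3p were detected on all arrays and called lower. For comparison, 21.4% of the 243 miRNAs detected on all arrays were called lower. mmu-miR-32-5p was detected on 1 of 7 arrays under curcumin and on 6 of 6 in controls, with a difference of −1.08 (limma adjusted p = 0.0551) that passed in the deposited values (−0.48, limma adjusted p = 0.0493). mmu-miR-363-3p, mmu-miR-367-3p and mmu-miR-92b-3p (the last named after its values were seen) were detected on no array. No miRNA with either seed was called higher in these values, whereas mmu-miR-363-3p passed as higher in the deposited values, as given above.

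The size of the differences depended on the scaling between arrays and on the slide. Without normalization between arrays the median difference of the 243 detected miRNAs was −0.26 rather than −0.09, and only mmu-miR-20b-5p was still called (−0.86, limma adjusted p = 0.0197). Under that setting 3.61% of all miRNAs were called lower. Scaled to the 75th percentile of all miRNAs, no guide arm was called, with differences of −0.46 for mmu-miR-93-5p, −0.37 for mmu-miR-25-3p and −0.63 for mmu-miR-20b-5p, and 2.97% of all miRNAs were called lower.

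On slide 1, with 3 curcumin-treated and 2 control tumors, mmu-miR-93-5p had a log2 difference of −1.19 (limma adjusted p = 0.0209) and mmu-miR-25-3p of −0.92 (limma adjusted p = 0.0148). mmu-miR-20b-5p was at −1.04 there (limma adjusted p = 0.0524) and mmu-miR-106b-5p at −0.29. On slide 2, with 4 tumors of each diet and both tumors numbered 5, the differences were −0.47, −0.53, −0.70 and −0.18 in the same order, and none was called. Of all miRNAs 1.85% were called lower on slide 1 and 0.185% on slide 2. The limma interaction of slide and diet passed the threshold in no guide arm (adjusted p = 1 for each). With slide as a block the 3 calls were kept.

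**Figure D5:**
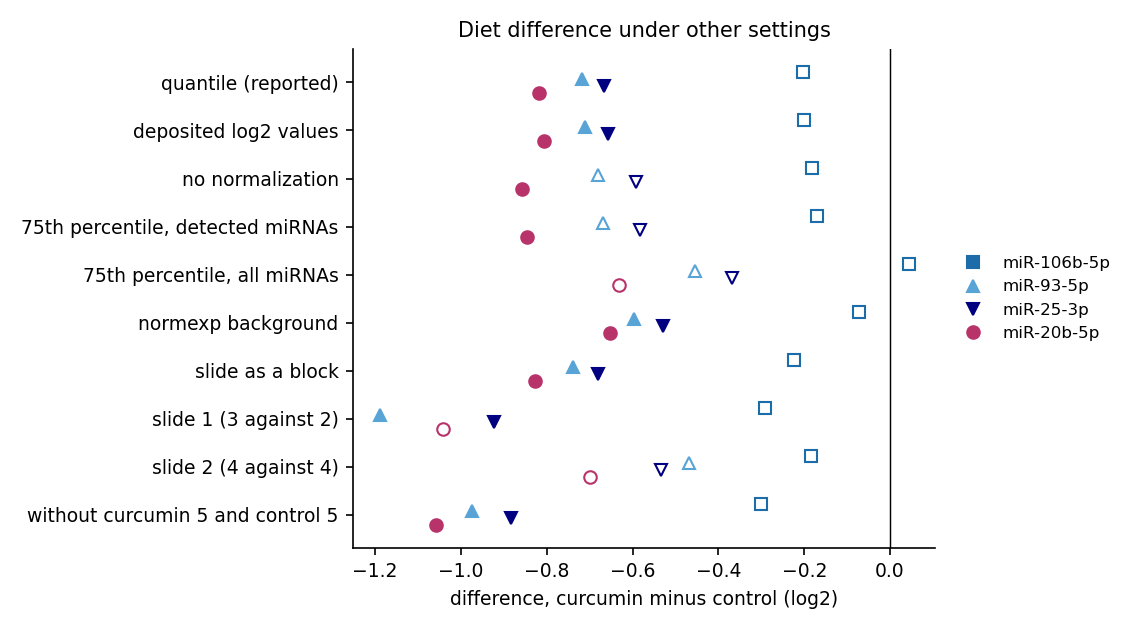
Difference of the mean log2 signal, curcumin minus control (horizontal axis), of the 4 detected guide arms under 10 settings of scaling, background, slide and tumors; filled symbols passed the limma threshold. miR-93-5p, miR-25-3p and miR-20b-5p lie below 0 in every setting shown, and miR-106b-5p lies nearest to 0 in each and above it when scaled to the 75th percentile of all miRNAs.

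Markers of other cell types also differed between the diets. Of 6 measured blood cell miRNAs 4 were higher under curcumin, among them mmu-miR-142-3p (2.31 on the log2 scale, limma adjusted p = 0.00407), against 8.34% of all miRNAs. The other 2, mmu-miR-451 (−0.82) and mmu-miR-144-3p (−1.07), were not called. The summed signal of this list ranged from 493 to 1516 in curcumin-treated tumors and from 166 to 999 in controls. Of 5 fibroblast and smooth muscle miRNAs 2 were higher, and their sum ranged from 498 to 1094 and from 161 to 392. The counts called higher were 0 of 2 for endothelium, 1 of 7 for epithelium (mmu-miR-205-5p, with 5 of 7 on no array) and 1 of 3 for skeletal muscle. Of 2 melanocyte miRNAs 1 was lower, namely mmu-miR-211-5p (−4.76, limma adjusted p = 0.0305), for which 4 of 7 arrays under curcumin and 6 of 6 control arrays had a detection call. B78H1 cells make no pigment but derive from melanoma. In curcumin-treated tumor 5, mmu-miR-211-5p was at 9.27, the highest value under curcumin, and mmu-miR-142-3p, mmu-miR-199a-3p and mmu-miR-205-5p were at their lowest values under curcumin (7.45, 8.45 and 7.75). Other members of the lists went the other way. In that tumor mmu-miR-451 (8.08), mmu-miR-144-3p (2.72, not detected) and the muscle mmu-miR-133a-3p (7.84) were at their highest values under curcumin. The part of these cell types in the differences of the guide arms was not tested.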

How the data were processed

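Total RNA of 13 flank tumors was hybridized in 1 color, 1 array per tumor. The authors extracted the intensity values with Feature Extraction 10.10.1.1, which subtracts background, combines the replicate spots of each probe and flags detection. They also deposited log2 values, described as quantile normalized, which served as an alternative. Groups were taken from the labels, which do not state the flank of each tumor.

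Probe signals were summed for each of 1079 mouse miRNAs, leaving out 57 viral ones, and quantile normalized. Values at or below 0 (51.4%) were set to the smallest positive value, 0.00765 (−7.03 on the log2 scale, the floor). Diets were compared with two-sided moderated tests in limma 3.58.1 under R 4.3.3, without covariates, adjusted by Benjamini-Hochberg over all miRNAs with a threshold of 0.05. The limma step was tested on simulated data. Exact permutation tests were two-sided over 1716 splits, with a smallest p of 0.000583. The number of arrays limits the precision, and the p-values set each diet difference against the spread between these tumors.

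The members and lists were chosen with earlier results of these data known. Named miRNAs are the guide and passenger arms, the other members of both clusters and of miR-17-92, miR-32-5p and miR-367-3p, and the 2 miRNAs most like each guide arm. Alternatives were the deposited values, other scalings, normexp background (offset 50, on median spot signals, added after seeing the data), a floor of 1, only detected miRNAs, single probes, the methods' t-test, slide and replicate blocks, and leaving out tumors. Of the 1079 miRNAs 840 matched a RefSeq sequence by name; the array design used another assembly than GRCm38.p6.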

Additional observations from a re-analysis of the deposited data

Results flagged for a closer look

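Among 35 groups of values of the detected miRNAs and ratios, 13 had 1 tumor far from the rest of its diet group by Dixon's criterion, which chance gives in about 1 of 20 groups. All 13 were a tumor numbered 5, and the values of related miRNAs in 1 tumor are not independent. Curcumin-treated tumor 5 stood high in mmu-miR-93-5p (log2 signal 9.17), mmu-miR-25-3p (8.88) and mmu-miR-20b-5p (8.63). It was also high in mmu-miR-19b-3p (9.78), mmu-miR-18a-5p (7.54) and mmu-miR-20a-5p (10.12). Control tumor 5 stood low in mmu-miR-20b-5p (8.11), mmu-miR-92a-3p (8.30), mmu-miR-17-5p (4.44) and mmu-miR-20a-5p (9.24). Before normalization the high values of curcumin-treated tumor 5 were mostly absent, but such sums are not scaled to the signal of the whole array. Over all miRNAs, curcumin-treated tumor 5 had the lowest sum of all arrays (114095) and control tumor 5 the highest of the controls (244666). In curcumin-treated tumor 5 the summed signals were 274, 221 and 170 in mmu-miR-93-5p, mmu-miR-25-3p and mmu-miR-20b-5p, against curcumin medians of 327, 265 and 185. Only mmu-miR-18a-5p was still highest there (93.8). Control tumor 5 then had 357, 411, 42.2 and 916 in the order above, against control medians of 355, 386, 45.4 and 933. The log2 ratios of mmu-miR-106b-5p to mmu-miR-93-5p (−0.054), to mmu-miR-25-3p (0.23) and to mmu-miR-20b-5p (0.49) were low in curcumin-treated tumor 5. In mmu-miR-106b-5p itself neither tumor met the criterion.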

How the results depend on the processing

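No result reversed its sign past the threshold. For mmu-miR-93-5p the log2 difference lost its call without normalization (−0.68), scaled to the 75th percentile of detected miRNAs (−0.67) or of all miRNAs (−0.46), on slide 2 (−0.47) and with 1 probe (−0.62). For mmu-miR-25-3p these values were −0.59, −0.58, −0.37, −0.53 and −0.44. mmu-miR-20b-5p lost its call scaled to the 75th percentile of all miRNAs (−0.63), on slide 1 (−1.04) and on slide 2 (−0.70). mmu-miR-363-3p passed in the deposited values (0.38), which gave 1 guide arm called higher. After Benjamini-Hochberg adjustment the methods' t-test called 3 guide arms lower and 0 higher, and 107 of all miRNAs lower and 109 higher, with equal variances. The number of guide arms called lower went from 3 to 1 without normalization and at the 75th percentile of detected miRNAs, and to 0 at that of all miRNAs and on slide 2. Of all miRNAs, the 81 called lower became 123 with the deposited values, 39 without normalization, 32 at the 75th percentile of all miRNAs, 20 on slide 1 and 2 on slide 2. The 90 called higher became 10 without normalization, 14 on slide 1 and 1 on slide 2. The ratios of mmu-miR-106b-5p to mmu-miR-93-5p, mmu-miR-25-3p and mmu-miR-20b-5p differed by 0.90, 0.63 and 0.75 on slide 1 and by 0.29, 0.35 and 0.52 on slide 2, and that of mmu-miR-25-3p to mmu-miR-20b-5p by 0.12 and 0.17 (0.26 without normalization). None passed there, where the smallest exact permutation p is 0.1 on slide 1 and 0.0286 on slide 2. The ratio of mmu-miR-93-5p to mmu-miR-20b-5p passed at 0.18 without normalization and under both percentile scalings, in which array factors cancel. For the other losses the cause was not tested, except that single slides hold fewer tumors.

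Whether the replicate numbers shared by the diets pair the tumors was not tested. Deviations of same-numbered tumors correlated between −0.30 and 0.20 over 243 miRNAs, above 0.1 in 4 of 6 pairs. With the number as a replicate block the differences were −0.70 for mmu-miR-93-5p, −0.63 for mmu-miR-25-3p and −0.79 for mmu-miR-20b-5p, and 0 guide arms were called (limma adjusted p = 0.216, 0.176 and 0.140), with 22 of all miRNAs lower and 45 higher. The blocked ratios differed by 0.54, 0.48 and 0.64 for mmu-miR-106b-5p to the other 3, and by 0.16 for mmu-miR-25-3p to mmu-miR-20b-5p (exact permutation p = 0.0625 each, smallest possible 0.03125).

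Leaving out 1 tumor at a time, the log2 differences ranged from −0.86 to −0.62 for mmu-miR-93-5p, from −0.78 to −0.62 for mmu-miR-25-3p, from −0.96 to −0.76 for mmu-miR-20b-5p and from −0.30 to −0.14 for mmu-miR-106b-5p. Guide arms called lower numbered 1 to 3, being 1 without curcumin-treated tumor 6 or control tumor 1, 2 or 4. All miRNAs called lower numbered 41 to 85, with fewer than 81 by over 1.5 times without curcumin-treated tumor 1, 2, 3 or 6 or control tumor 2 or 4. The ratio of mmu-miR-25-3p to mmu-miR-20b-5p ranged from 0.12 to 0.17.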
